A study of Mus musculus with 7 samples.

Results

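The 33 genes described here encode proteins of G2 and mitosis, the phases in which a cell that has copied its DNA prepares to divide and then divides. They were taken as the rows of the deposited count table whose Ensembl identifiers map to a list of 33 mouse symbols. All 33 were found, each with 1 identifier, among 48795 identifiers in the table, and all 33 passed the filter on low counts that left 15934 genes for testing. The libraries came from primary mouse oligodendrocyte precursor cells (OPCs), the dividing glial progenitors that give rise to oligodendrocytes, from wild-type CD-1 pups of both sexes in equal number, at postnatal days 4 to 7. Controls were 4 libraries with no treatment, replicates 1 to 4, and the treated group was 3 libraries, replicates 2 to 4, of cells given 20 µM phenylephrine (PE), an agonist of alpha1 adrenergic receptors, for 1 h. The labels give the same 1 h for the controls and name no vehicle. By its title the study is about norepinephrine and the proliferation of cortical OPCs. PE and control libraries with the same replicate number share a library code in their titles and were compared within the resulting pairs 2, 3 and 4, while control 1 has no PE partner. Whether replicates came from separate cultures or animals is not stated, so every p-value measures the spread between these libraries, which may be partly technical.

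Passage through G2 and mitosis is driven by Cdk1 with its A-type and B-type cyclins, then by the Aurora and Polo-like kinases, kinetochore proteins, kinesin motors and spindle proteins, and it ends when the anaphase-promoting complex (APC/C) has cyclin B and other proteins destroyed. Most of these genes are transcribed in bursts tied to the cycle: complexes built on MuvB hold them down in resting and G1 cells, and the same core with B-MYB and FOXM1 activates them late in the cycle. The complexes contact a short promoter element, the cell cycle genes homology region (CHR), commonly TTTGAA, and many of the promoters also hold CCAAT boxes bound by NF-Y. In OPC cultures the transcripts mark cycling progenitors, and they are lost as cells leave the cycle and mature.

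Levels of the 33 genes differed more between untreated libraries than between PE and control of the same pair. Their summed level was 2.29 times as high in control 4 as in control 1, and 26 of the 33 put the controls in the same order, against 12.7% of tested genes. After 1 h of PE the paired log2 change was below 0 for 31 of the 33, against 50.7% of tested genes. In 22 of the 33 PE was below control in every pair, against 13.5%. The 33 genes varied together between libraries, so such counts do not come from independent genes. The median change over all 33 was 5.39% lower. Only Ccnf, which encodes cyclin F, passed the test, at 20.3% lower (n = 3 pairs), where 0.0377% of tested genes fell. That call was lost by DESeq2 with the same block, without the block, and with control 3 or PE 3 left out. With control 2 or PE 2 left out, 6 members passed, but calls also grew over all genes. There 59 and 60 of all tested genes fell, against 6 in the main fit. Aurka, Kif20b and Ndc80 had the next largest decreases, 13.0% to 15.4%, none of which passed, and the transcripts of the proliferation marker Ki-67 (Mki67), topoisomerase II alpha (Top2a), cyclin B1 (Ccnb1) and Cdk1 had paired changes under 5% on average, although single pairs reached -12.9% for Mki67 and 9.23% for Cdk1.

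The promoters of these genes are shown because many of them share short strings of letters. The genes were listed by symbol, and how the symbols were picked is not stated. Whether genes known to carry these strings were favoured was not tested. RefSeq promoters of build GRCm38.p6, 250 bases before to 50 after the transcription start, were matched by symbol for 29 of the 33 genes. Kif20a, Aurkb, Tpx2 and Ccna2 had none. Stretches of 150 bases ending at the base before the start follow for Ccnf, the gene that fell with PE, and for Cdk1, Cdc20, Mki67, Top2a and Ccnb1, 5′ to 3′ on the strand of the gene. Capitals mark the CHR element TTTGAA, which reads TTCAAA when it lies on the other strand. Also in capitals is its variant, spelled TTCGAA. The remaining capitals mark the box CCAAT, which reads ATTGG when it lies on the other strand.
Ccnf, chr17:24251410-24251559, minus strand: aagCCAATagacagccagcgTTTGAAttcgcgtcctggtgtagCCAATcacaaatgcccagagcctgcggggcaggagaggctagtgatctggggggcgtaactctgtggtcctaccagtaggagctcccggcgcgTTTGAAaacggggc
Cdk1, chr10:69352913-69353062, minus strand: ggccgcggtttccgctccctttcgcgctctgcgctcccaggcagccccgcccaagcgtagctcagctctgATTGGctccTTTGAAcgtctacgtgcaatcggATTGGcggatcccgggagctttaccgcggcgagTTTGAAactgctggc
Cdc20, chr4:118437344-118437493, minus strand: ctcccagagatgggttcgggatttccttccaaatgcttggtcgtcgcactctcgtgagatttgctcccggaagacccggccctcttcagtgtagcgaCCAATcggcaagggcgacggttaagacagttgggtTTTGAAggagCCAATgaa
Mki67, chr7:135716380-135716529, minus strand: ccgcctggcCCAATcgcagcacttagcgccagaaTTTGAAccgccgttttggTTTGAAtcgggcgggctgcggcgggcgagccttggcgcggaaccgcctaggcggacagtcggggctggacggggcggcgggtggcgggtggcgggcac
Top2a, chr11:99024190-99024339, minus strand: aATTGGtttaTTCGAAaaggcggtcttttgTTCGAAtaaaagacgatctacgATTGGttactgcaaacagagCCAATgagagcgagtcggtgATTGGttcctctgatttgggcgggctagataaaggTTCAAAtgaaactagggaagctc
Ccnb1, chr13:100786487-100786636, minus strand: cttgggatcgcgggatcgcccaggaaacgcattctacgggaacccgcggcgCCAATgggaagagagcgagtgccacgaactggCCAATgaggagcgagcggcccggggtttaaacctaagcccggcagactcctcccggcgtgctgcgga
In Aurka and Kif20b the element lies downstream of the start. The 30 bases around it are shown for these genes, which had the smallest p after Ccnf, with TTTGAA in capitals.
Aurka, chr2:172370521-172370550, minus strand: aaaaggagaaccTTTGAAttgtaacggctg
Kif20b, chr19:34922353-34922382, plus strand: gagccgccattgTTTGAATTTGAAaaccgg

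TTTGAA, searched on both strands, was present in 24 of the 29 genes with a promoter (82.8%). The share was 14.3% of the 11084 tested genes with a promoter and 20.2% of all 27025 genes with one. The match nearest to the start lay before it in 10 of the genes and after it in 14, at positions from -103 to 41, and within 40 bases of the start in 20. CCAAT was present in 23 of the 29 (79.3%), against 42.9% of tested genes and 41.1% of all genes with a promoter, and 16 of the 29 had 2 or more. Both motifs were found in 20 of the 29 (69.0%), against 7.10% of tested genes. In Ccnf, TTTGAA begins at positions -130 and -14 and CCAAT at -147 and -107, counted back from the start. In Kif20b, 2 copies of TTTGAA stand end to end, at positions 8 and 14. The variant TTCGAA was present in 3 of the 29 (10.3%), against 2.39% of tested genes, among them Top2a, with copies at -140 and -120. TTTGAA was not in the windows of Ccnb1, Nusap1, Birc5, Cenpe and Bub1. The motifs can overlap by a letter and each was counted wherever it occurred, and a match is a string of letters and not a measured site. The same search found TTTGAA in 34 of 64 further G2 and mitosis genes (53.1%), in 5 of 15 regulators of their transcription (33.3%), in 5 of 28 DNA replication and S phase genes (17.9%) and in 1 of 16 cell cycle inhibitor genes (6.25%). CCAAT was common in each of these lists, at 67.2%, 60.0%, 60.7% and 75.0% of genes in the same order.

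Library totals ran from 12837463 to 17962339 counts, and single members had 434 to 22553 counts in a library. Counting error alone is 4.80% at the lowest of these counts, Aurkb in control 1, and 0.666% at the highest. Control 1 has no PE partner, and in the paired libraries counts went down to 561, for Kif20b in PE 2. A PE difference within a pair carries the error of both its counts, which was not computed. The OPC label was checked against marker levels, given as CPM, counts per 1000000 counts of a library after TMM scaling of its size. Pdgfra ran from 1343 to 2351 CPM, Cspg4 from 288 to 544, Olig1 from 1471 to 1921, Olig2 from 733 to 1043 and Sox10 from 340 to 629 over the 7 libraries. Mbp, a myelin gene, was at 404 to 792 CPM and Gfap, an astrocyte gene, at 190 to 544, so marker transcripts of other cell types were measurable. Rbfox3, a neuronal gene, reached at most 2.22 CPM and Aif1, a microglial gene, at most 1.56. Other markers of these cell types were higher. Summed in single controls, 12 neuron markers were at 1125 to 1464 CPM and 12 microglia markers at 63.4 to 115. The labels also carry text on tamoxifen, virus and immunoprecipitation from cortex, at odds with untreated wild-type cells in culture, and its bearing on these libraries was not tested.

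**Figure D1:**
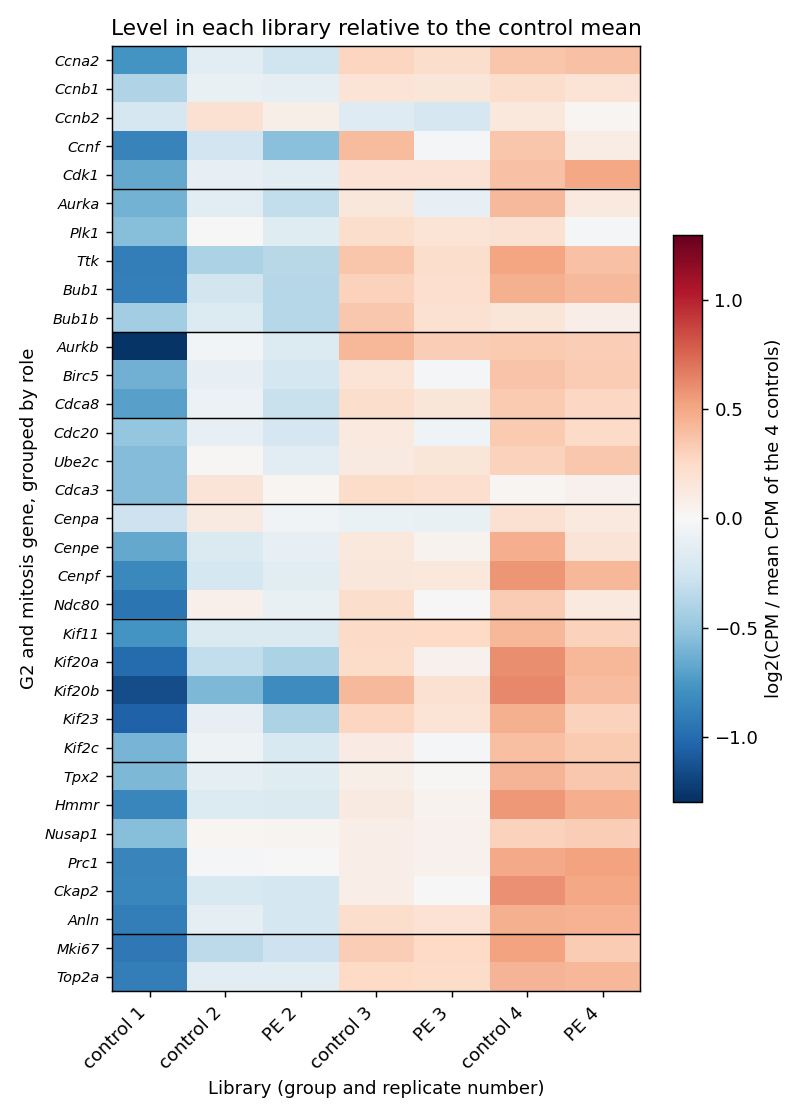
Level of each of the 33 genes (rows, grouped by role) in each of the 7 libraries (columns), as log2 of its CPM over the mean CPM of the 4 controls. Every gene is lowest in control 1 among the controls, and each PE column lies beside the control of its own number.

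Among the 4 controls, the summed level of the 33 genes was 3743 CPM in control 1, 5734 in control 2, 7328 in control 3 and 8557 in control 4 (mean 6341 ± 2082, SD, n = 4). Control 1 was the lowest control for all 33 genes, a pattern found for 30.5% of all tested genes. The full ranking with control 1 lowest, then 2, 3 and 4, was shown by 26 of the 33, against 12.7% of tested genes. The exceptions were Ccnf, Plk1, Bub1b and Aurkb, which were higher in control 3 than in control 4, Cdca3, also highest in control 3, Ccnb2, highest in control 2, and Cenpa, in which control 3 ranked below control 2. No correlation coefficient is given between members, because 4 controls are too few and the PE libraries are tied to them by replicate number.

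The spread differed from gene to gene. The highest control was a median of 2.21 times the lowest over the 33 genes, against 1.55 over the 15904 tested genes with reads in every control and 1.35 over the 4501 tested genes whose control mean was at or above 60.1 CPM, the lowest mean of a member. Kif20b, a kinesin that acts in cytokinesis, had the widest spread at 3.43 times, followed by Aurkb at 3.25 times and Kif20a at 3.06 times. Ccnb2, which encodes cyclin B2, had the narrowest at 1.34 times and Cenpa, the centromeric histone H3 variant, the next at 1.38 times. By role, control 4 was above control 1 by 2.64 times for the pair Mki67 and Top2a, by 2.56 times for the kinesins and by 1.74 times for the APC/C and SCF genes.

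CPM per kilobase divides the level of a gene by the merged length of all its annotated exons, over all its transcripts. The transcripts present may be shorter, to a degree that differs between genes, so the order of genes depends in part on annotation. On this scale Top2a stood highest at 101 ± 36.3 (SD, n = 4 controls). Mki67 followed at 88.0 ± 36.8 and Cdc20 at 86.2 ± 20.6. These SDs hold the shared differences between the controls, so neighbours were also compared within each library. Top2a was above Mki67 in 4 of 4 controls, while Mki67 was above Cdc20 in 2 of 4, so that order was not stable. Ccna2 at 76.9 ± 24.8, which lay below Cdc20 in 4 of 4 controls, came next, before Tpx2 at 68.9 ± 19.8, Ube2c at 65.5 ± 15.3 and Ckap2 at 62.8 ± 25.1, each above the next in 3 of 4. At the low end stood Kif20b at 10.1 ± 5.27 CPM per kilobase, Ndc80 at 9.25 ± 3.08, Kif23 at 9.02 ± 3.54 and Ccnf at 8.94 ± 3.34, each above the next in only 2 of 4 controls.

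Other gene lists also differed between the controls. The summed level of 34 DNA replication and S phase genes was 1226, 2248, 4699 and 5235 CPM in controls 1 to 4, so control 4 was 4.27 times control 1. Its ratio to the summed G2 and mitosis level was 0.327 and 0.392 in controls 1 and 2 and 0.641 and 0.612 in controls 3 and 4. The summed level of the 14 maturing oligodendrocyte markers ranked the opposite way, at 7869, 4761, 3787 and 2484 CPM in controls 1 to 4. A sum is weighted to its most abundant genes, and the markers that follow this order were not counted. Mbp, which is among them, did not, at 720, 466, 773 and 404 CPM in controls 1 to 4. PE libraries lay near the controls of their own number on each of these lists, with S phase sums of 2147, 4587 and 5204 CPM and maturing oligodendrocyte sums of 4842, 3775 and 2562 in PE 2, 3 and 4. In bulk RNA, fewer cells of a type and less RNA per cell cannot be told apart.

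**Figure D2:**
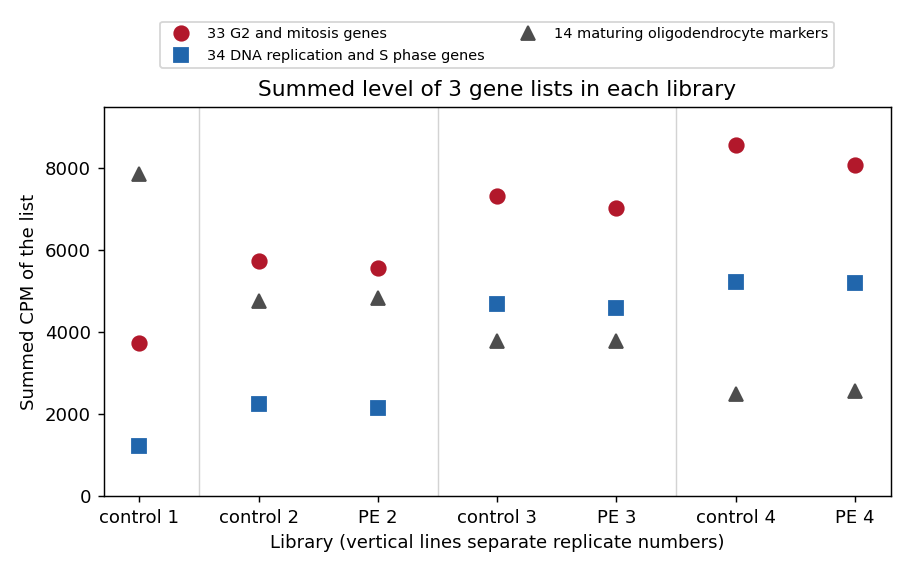
Summed CPM (linear axis from 0) of the 33 G2 and mitosis genes, 34 DNA replication and S phase genes and 14 maturing oligodendrocyte markers in each of the 7 libraries, with 1 point per library and list. The G2 and mitosis sum lies between 3743 and 8557 CPM in controls, and its PE points lie slightly below the control beside them. For the summed maturing oligodendrocyte markers, PE 2 and PE 4 lie above their controls.

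PE was compared with control within pairs by the quasi-likelihood test of edgeR, in which replicate numbers formed the block, and adjusted p-values are Benjamini-Hochberg values over all 15934 genes. Of the 33 genes, 1 fell (Ccnf), none rose and 32 did not pass at an adjusted p under 0.05. Over all tested genes, 6 fell (0.0377%) and 80 rose (0.502%). At an unadjusted p under 0.05, 11 of the 33 lay lower and 0 higher, against 2.28% of all tested genes lower and 3.48% higher. The paired log2 change was below 0 for 31 of the 33, against 50.7% of tested genes, with Cdk1 and Prc1 as the exceptions.

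The pairs gave the same picture one by one. Of the 33 genes, 26 were below control in pair 2, 30 in pair 3 and 27 in pair 4. For all tested genes, single pairs are given below as medians. The 33 genes varied together between libraries, so these counts and those of the paired fit do not come from independent genes. A small shift in a pair can move most of them at once. In 22 genes PE was below control in every pair, against 13.5% of tested genes, and in 0 it was above control in every pair, against 11.9%. The median log2 ratio of the 33 was -0.12 in pair 2, -0.07 in pair 3 and -0.09 in pair 4, while that of all tested genes was 0.00, 0.00 and -0.01. The summed level was 5567, 7021 and 8079 CPM in PE 2, 3 and 4, changes of -2.91%, -4.19% and -5.59% from the paired control. The median paired log2 change was -0.08, against -0.00 over all tested genes, and standard errors of single genes ran from 0.03 to 0.06. For each of the 33 genes the range over the 4 controls was wider than the PE change.

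**Figure D3:**
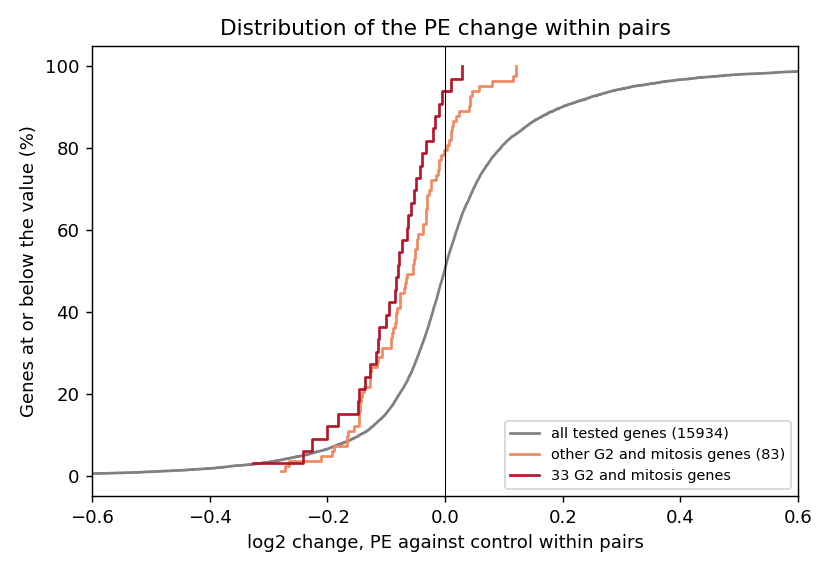
Cumulative share of genes (vertical axis, %) at or below each paired log2 change (horizontal axis) for the 33 genes, 83 other G2 and mitosis genes and all 15934 tested genes. The horizontal axis ends at 0.6 on either side of 0. The curve of the 33 genes reaches 0 with 31 of them to its left, where that of all tested genes is at 50.7%.

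**Figure D4:**
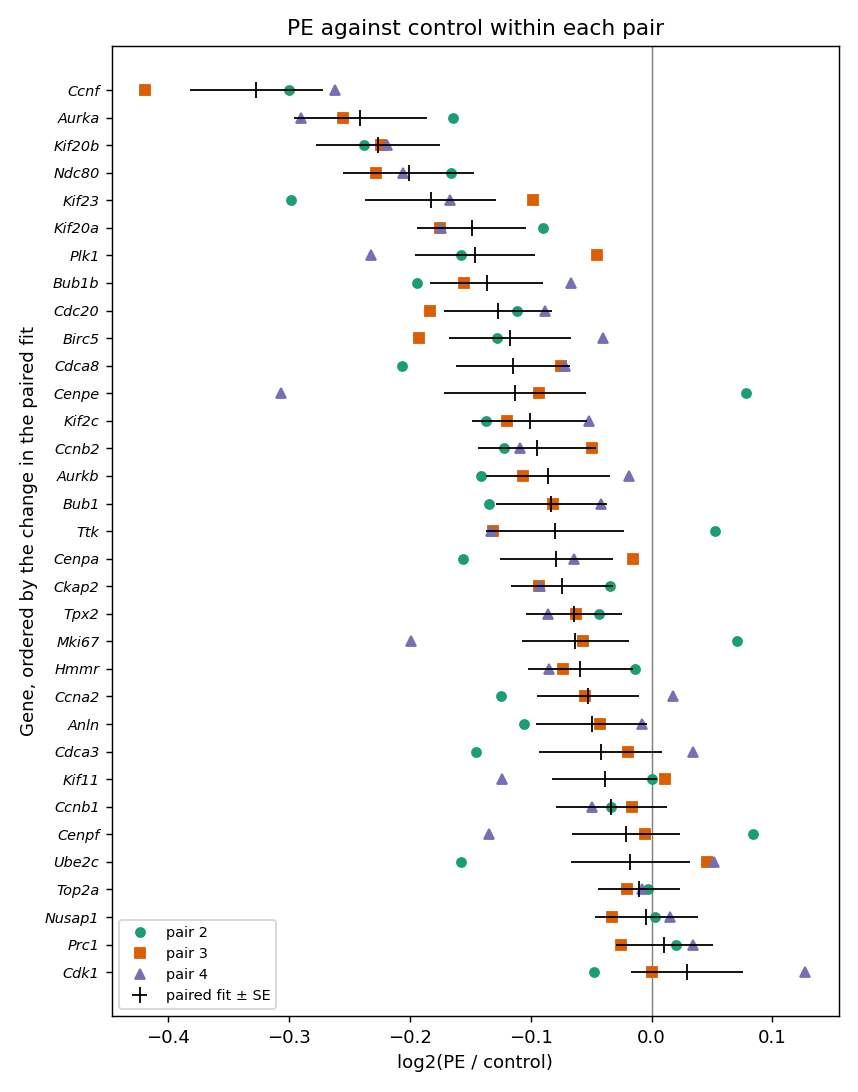
log2 ratio of PE to control in pairs 2, 3 and 4 (coloured points) and the paired change ± SE (black bars) for each of the 33 genes, ordered by that change. Ccnf lies lowest at -0.33, and 22 genes have all 3 points to the left of 0.

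Summed markers of other cell types were not below control in every pair. Summed astrocyte markers were at 1138 to 1685 CPM in controls and 1134 to 1697 in PE, neuron markers at 1125 to 1464 and 1099 to 1502, microglia markers at 63.4 to 115 and 77.8 to 126, and endothelial and mural markers at 77.2 to 178 and 74.8 to 193. No marker of these lists was at 0 in all libraries. Summed OPC markers were at 10661 to 12209 CPM in controls and 10233 to 12378 in PE. Within pairs, the microglia sum was above control in every pair, by 3.05%, 4.72% and 10.04% in pairs 2, 3 and 4, and the endothelial and mural sum changed by 8.66%, -3.12% and -29.0%. Of the 10 OPC markers 1 fell, against 0.0377% of tested genes. It was the lineage factor gene Olig2, at a log2 change of -0.19 ± 0.04. With the block its adjusted p was 0.0334 by edgeR, 0.0154 by limma-voom and 0.353 by DESeq2. Leaving out control 3, PE 3, control 4 or PE 4 took its edgeR adjusted p to 0.224, 0.213, 0.0675 and 0.0507. Of 11 tested neuron markers 1 rose, against 0.502% of tested genes. It was Gad1, a GABA synthesis gene singled out after its values were seen, at 0.83 ± 0.13. With the block its adjusted p was 0.00585 by edgeR, 0.00624 by limma-voom and 0.673 by DESeq2. By edgeR it passed with each library left out in turn, but not without the block. No other marker of these lists or of the maturing oligodendrocyte list passed in either direction. The part of cell make-up in the PE differences was not tested.

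Among the cyclins and Cdk1, 1 of 5 fell and none of the others passed. Ccnf (ENSMUSG00000072082, chr17:24222198-24251484, minus strand, GRCm38) encodes cyclin F, which binds no Cdk but serves as the substrate receptor of an SCF ubiquitin ligase in G2. Its level was 38.1, 58.8, 92.6 and 89.4 CPM in controls 1 to 4, and 47.7, 69.2 and 74.6 CPM in PE 2, 3 and 4. PE lay below its own control in all 3 pairs, with log2 ratios of -0.30, -0.42 and -0.26, although the ranges of the groups overlapped. The paired log2 change was -0.33 ± 0.05 (SE), with an edgeR adjusted p of 0.00818. The adjusted p was 0.00905 by limma-voom and 0.179 by DESeq2, both with the same block, and with control 3 or PE 3 left out it was 0.284 or 0.279 by edgeR, at log2 changes of -0.28. Ccnb2, the second B-type cyclin measured, was at 75.0, 100, 77.5 and 95.9 CPM in controls and 92.0, 74.9 and 88.9 in PE. It was lower in each pair by a small margin, with a log2 change of -0.09 ± 0.05 and adjusted p 0.914.

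Ccnb1, whose protein with Cdk1 triggers entry into mitosis, was at 77.9, 95.4, 115 and 120 CPM in controls 1 to 4 and at 93.2, 114 and 116 in PE 2, 3 and 4. Each PE value lay within 4% of its control, and the log2 change was -0.03 ± 0.05 (adjusted p 0.993). Cdk1, the kinase itself, was at 115, 170, 208 and 237 CPM in controls and 164, 208 and 259 in PE. It was lower in pair 2, level in pair 3 and higher in pair 4, for a log2 change of 0.03 ± 0.05 (adjusted p 0.994). Ccna2, the cyclin A of S phase and G2, had a log2 change of -0.05 ± 0.04.

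All 5 mitotic kinases and checkpoint genes lay below 0, and none passed. Aurka (ENSMUSG00000027496), the kinase of centrosomes and spindle poles, was at 41.9, 57.8, 71.1 and 85.8 CPM in controls and 51.6, 59.5 and 70.2 in PE. All 3 pairs were lower, with log2 ratios of -0.16, -0.26 and -0.29. The log2 change was -0.24 ± 0.05, or 15.4% lower, at an adjusted p of 0.0753. Plk1, the Polo-like kinase needed for mitotic entry and spindle assembly, was at 72.8, 107, 125 and 123 CPM in controls and 96.0, 121 and 105 in PE. It was lower in all pairs and least so in pair 3, for a log2 change of -0.15 ± 0.05 (adjusted p 0.507). Among the genes of the spindle checkpoint, which delays anaphase until chromosomes are attached, Bub1b stood at -0.14 ± 0.05, Bub1 at -0.08 ± 0.05 and Ttk at -0.08 ± 0.06. Ttk was above control in pair 2, and the other two lay below in every pair.

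The 3 members of the chromosomal passenger complex, which corrects faulty attachments and then directs cytokinesis, were lower in every pair and none passed. Cdca8, encoding borealin, was at 74.1, 115, 142 and 153 CPM in controls and 99.2, 135 and 146 in PE. Birc5, encoding survivin, was at 55.0, 78.8, 95.5 and 109 CPM in controls and 72.1, 83.5 and 106 in PE. Their log2 changes were -0.11 ± 0.05 (adjusted p 0.757) and -0.12 ± 0.05 (adjusted p 0.808), with the widest gap in pair 2 for Cdca8 and in pair 3 for Birc5. Aurkb, the kinase of the complex, had -0.09 ± 0.05.

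The ubiquitination genes act at the exit from mitosis or, for Cdca3, at its entry. Cdc20, the activator of the APC/C, was at 114, 150, 176 and 204 CPM in controls and 138, 155 and 192 in PE. It lay lower in all pairs, at a log2 change of -0.13 ± 0.04 and an adjusted p of 0.556. Cdca3, an F-box-like protein that promotes mitotic entry, was at 59.5, 98.7, 104 and 89.5 CPM in controls and 89.3, 102 and 91.6 in PE, lower in pairs 2 and 3 and higher in pair 4 (-0.04 ± 0.05, adjusted p 0.993). Ube2c, the conjugating enzyme that works with the APC/C, was lower in pair 2 and higher in pairs 3 and 4, at -0.02 ± 0.05.

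All 4 centromere and kinetochore genes lay below 0, 2 of them in every pair, and none passed. Ndc80 (ENSMUSG00000024056), the outer kinetochore protein that grips microtubules, was at 31.1, 63.0, 70.5 and 75.6 CPM in controls and 56.2, 60.2 and 65.5 in PE. The 3 pairs were alike, with log2 ratios of -0.17, -0.23 and -0.21. Its log2 change was -0.20 ± 0.05, or 13.0% lower, with an adjusted p of 0.218. Cenpe, the kinetochore kinesin that carries chromosomes to the spindle equator, was at 114, 159, 199 and 251 CPM in controls and 168, 186 and 203 in PE. Its pairs differed, with log2 ratios of 0.08, -0.09 and -0.31, for a log2 change of -0.11 ± 0.06 (adjusted p 0.914). Cenpf, a large kinetochore-associated protein, showed the same order of pairs around -0.02 ± 0.04, and Cenpa was at -0.08 ± 0.05.

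The kinesins had the lowest median log2 change of the role groups, -0.15, with 5 of 5 below 0, 4 in every pair, and none past the threshold. Kif20b (ENSMUSG00000024795) was at 31.4, 46.8, 94.0 and 108 CPM in controls and 39.7, 80.5 and 92.6 in PE. Its 3 pairs were nearly identical, at log2 ratios of -0.24, -0.22 and -0.22, whereas its controls spread more widely than those of any other member. The log2 change was -0.23 ± 0.05, or 14.5% lower, with an adjusted p of 0.0747. Kif23, the motor subunit of centralspindlin in cytokinesis, was at 34.4, 66, 86.3 and 98.3 CPM in controls and 53.7, 80.6 and 87.5 in PE. It was lower in all pairs, most in pair 2, for a log2 change of -0.18 ± 0.05 (adjusted p 0.322). Kif20a, which helps bring the passenger complex to the midzone, had -0.15 ± 0.04, Kif2c, a microtubule depolymerase at centromeres, -0.10 ± 0.05, and Kif11, the motor that separates spindle poles, -0.04 ± 0.04.

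The 6 spindle and cytokinesis genes had a median log2 change of -0.05, with 5 below 0 and none past the threshold. Ckap2, a protein that promotes microtubule growth on the spindle, was at 112, 176, 214 and 305 CPM in controls and 172, 200 and 286 in PE. Tpx2, the activator of Aurora A on spindle microtubules, was at 215, 297, 340 and 437 CPM in controls and 288, 325 and 412 in PE. Both were slightly lower in every pair, at -0.07 ± 0.04 (adjusted p 0.924) and -0.06 ± 0.04 (adjusted p 0.932). Hmmr, a spindle-pole protein, stood at -0.06 ± 0.04 and Anln, the actin-binding scaffold of the cleavage furrow, at -0.05 ± 0.05. Nusap1 and Prc1, which bundle spindle microtubules, were at -0.00 ± 0.04 and 0.01 ± 0.04.

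Mki67 encodes Ki-67, which coats mitotic chromosomes and is used to count cycling cells. It was at 464, 701, 1102 and 1275 CPM in controls and 736, 1060 and 1111 in PE. PE was above control in pair 2 and below it in pairs 3 and 4, with log2 ratios of 0.07, -0.06 and -0.20 and a log2 change of -0.06 ± 0.04 (adjusted p 0.975). Top2a, which untangles sister chromatids, was at 487, 829, 1087 and 1234 CPM in controls and 827, 1072 and 1227 in PE. Its PE values matched their controls within 2% in every pair, at a log2 change of -0.01 ± 0.03. Over the 33 genes, adjusted p was above 0.9 for 21.

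Of the 33 genes, 6 overlap another tested gene, and since the kit keeps no strand, reads in the shared bases cannot be assigned. They are Ccna2 with Exosc9, Cdca8 with 9930104L06Rik, Cdc20 with Elovl1, Kif20a with Cdc23, Nusap1 with Oip5 and Prc1 with Rccd1. Ccnf, Aurka, Kif20b and Ndc80 are not among them.

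Further cell cycle lists were read in the same paired fit. Of 83 other G2 and mitosis genes tested, 0 passed in either direction by edgeR, and by DESeq2 or limma-voom with the block, while 20 lay lower and 1 higher at an unadjusted p under 0.05, against 2.28% and 3.48% of all tested genes. Their log2 change was below 0 in 66, against 50.7% of tested genes, and its median was -0.06. PE was below control in every pair in 39 and above it in every pair in 3, against 13.5% and 11.9%. Troap, a spindle protein, had the smallest p at -0.27 ± 0.07 (adjusted p 0.168), followed by the ubiquitin ligase gene G2e3 at -0.19 ± 0.05 (0.232), and by Sgo1 and Sgo2a, the shugoshins that protect centromeric cohesion, at -0.27 ± 0.08 (0.301) and -0.19 ± 0.06 (0.363). Of 20 regulators of G2 and mitosis transcription, none passed, and the median was -0.04. At an unadjusted p under 0.05, 3 of the 20 lay lower, against 2.28% of all tested genes. E2f8, an E2F repressor, was at -0.17 ± 0.07, Lin37, a MuvB subunit, at -0.27 ± 0.12, Trp53 at -0.11 ± 0.05 and Mybl1, a relative of B-MYB, at -0.14 ± 0.07, with adjusted p from 0.768 to 0.911.

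Of 34 DNA replication and S phase genes, 0 passed by edgeR, DESeq2 or limma-voom with the block. At an unadjusted p under 0.05, 1 lay lower, against 2.28% of all tested genes, which is about the same share. In this list 29 were below 0 and 11 below control in every pair, against 50.7% and 13.5% of tested genes, at a median of -0.03. Pola1, a subunit of DNA polymerase alpha, had the smallest p at -0.12 ± 0.05 (adjusted p 0.768), before E2f2, which encodes an activating E2F, at -0.16 ± 0.08, Uhrf1, which maintains DNA methylation at replication, at -0.08 ± 0.04 and Slbp, which binds histone mRNA, at -0.12 ± 0.06.

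Among 16 tested cell cycle inhibitors, 2 rose and none fell, against 0.502% and 0.0377% of all tested genes, and 11 lay below 0, against 50.7%, at a median of -0.03. Btg1, an antiproliferative adaptor of mRNA deadenylation, was at 47, 55.9, 35.1 and 29.3 CPM in controls and 66.5, 50.8 and 39.6 in PE. It was higher in all 3 pairs, at a log2 change of 0.40 ± 0.07 and an edgeR adjusted p of 0.00881. Btg2, its paralog, was at 57.4, 58.4, 21.7 and 29.1 CPM in controls and 80.5, 32.8 and 33.5 in PE. It too was higher in all pairs, at 0.41 ± 0.07 (adjusted p 0.0150). Tob1, of the same family, was at 0.25 ± 0.07 (adjusted p 0.317) and Gadd45g, a stress and growth arrest gene, at 0.22 ± 0.08 (adjusted p 0.556). Tob1 was higher in all 3 pairs, whereas Gadd45g was lower in pair 2, at 176 CPM in PE against 190 in control. By DESeq2 with the block, and by edgeR with control 3 or PE 3 left out, 0 of the 16 passed. The list was chosen with these data known and is not independent evidence of its direction.

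The direction of the PE difference in the 33 genes depended on whether control 1, which has no partner, entered the comparison. Without the replicate block, edgeR called 0% of all tested genes and 0 of the 33, with 71 genes but no member at an unadjusted p under 0.05 and a smallest unadjusted p of 0.451 among members. In that fit 28 of the 33 lay above 0, the median log2 change was 0.09 against 0.01 over all genes, and the sign turned for 26 members. The unpaired means set 3 PE libraries at a summed 6889 ± 1261 CPM (SD) against 4 controls at 6341 ± 2082, and control 1, the lowest of them, entered on the control side alone. With control 1 left out, the unpaired median was -0.08, as in the paired fit, and 0 members passed.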

How the data were processed

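RNA-seq counts were analysed for 7 libraries, 4 control and 3 PE. The authors deposited 1 table of whole-number read counts per Ensembl gene, not normalized, with each library in a column. The submitters' processing notes name bcl2fastq 2.17, STAR, HTSeq, GRCm38 and mm10. Counting settings are not given there or in the labels. SMART-Seq v4 and Nextera XT, the kits named per the labels' protocols, amplify cDNA by PCR and keep no strand. The 33 members, the lists and the tests were chosen with earlier results of these data known.

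The counts were tested with edgeR 4.0.16 (R 4.3.3) on all 15934 genes left by filterByExpr (minimum count 10, minimum total count 15), with TMM scaling and a two-sided quasi-likelihood F test at an adjusted p of 0.05. The design held the replicate number as a block, because the comparison asked for is within pairs. The titles' library codes give the pairing. Deviations from the group means correlated at 0.74, 0.67 and 0.79 between libraries numbered 2, 3 and 4, and at 0.67 between PE 2 and control 1. Control 1 carries no weight in the PE effect. Standard errors were derived from each fold change with its F statistic. Chi-square per degree of freedom between libraries of a group was 12.0 to 102.8, so none were duplicates. Symbols, coordinates and exon lengths came from GENCODE M21, and promoters from RefSeq. Values in every library are given for members that passed, the 2 with the smallest p in each role group, Mki67, Top2a, Ccnb1 and Cdk1. From other lists those that passed and up to 4 with the smallest p are named. Scripts were tested on simulated data. Alternatives were no replicate block, RLE scaling, no filter, DESeq2 1.42.0, limma-voom (limma 3.58.1) and leaving out each library. A fit with neither block nor control 1, and DESeq2 and limma-voom with no block, were chosen after seeing the data.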

Additional observations from a re-analysis of the deposited data

How the results depend on the processing

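The summed control level, the control level of each member, the ranking of the controls and the number of members lower in every pair (21 to 26) moved by less than the spread between replicates, or by less than 1.5 times, under each alternative run for them. Without the replicate block, the fit that ignores the pairs, the median turned to 0.085 for the 33 members, 0.11 for the other G2 and mitosis genes, 0.078 for the regulators and 0.26 for the S phase genes. Single members then stood at Ccna2 0.14, Ccnb1 0.076, Plk1 0.0039, Ttk 0.12, Bub1 0.13, Aurkb 0.17, Birc5 0.044, Cdca8 0.066, Cdc20 0.0080, Ube2c 0.14, Cdca3 0.10, Cenpe 0.040, Cenpf 0.16, Ndc80 0.013, Kif11 0.14, Kif20a 0.068, Kif20b 0.018, Kif23 0.053, Kif2c 0.058, Tpx2 0.085, Hmmr 0.14, Nusap1 0.14, Ckap2 0.12, Anln 0.16, Mki67 0.13 and Top2a 0.20. By construction this fit sets control 1 against no partner. The count of members that fell, 1 in the paired fit, was 0 without the block, also with control 1 left out and by DESeq2 or limma-voom, 0 by DESeq2 with the block, 3 with no filter and 0 to 6 when 1 library was left out. With no filter the 3 were Ccnf, Aurka and Kif20b. It was 6 without control 2 or PE 2 (Ccnf, Aurka, Cenpe, Ndc80, Kif20a and Kif20b), where 59 and 60 of all genes fell. It was 0 without control 3 or PE 3, where 4 of all genes fell in each fit. For all genes the counts that fell and rose, 6 and 80, were 0 and 0 without the block, also with control 1 left out and by limma-voom, 0 and 2 by DESeq2 without it, 2 and 31 by DESeq2 with it, 23 and 171 with no filter, and 4 to 60 and 47 to 255 with 1 library left out. The other G2 and mitosis genes had 2 lower with no filter and 0 to 5 with 1 library left out, the regulators 0 to 2 lower, and the inhibitors 0 higher without the block or by DESeq2, and 0 to 3 with 1 library left out. With 1 library left out, the inhibitors' median ran from -0.047 to 0.011, and log2 changes ran from -0.024 to 0.071 for Cdk1, -0.056 to 0.053 for Ube2c, -0.083 to 0.012 for Cdca3, -0.068 to 0.038 for Cenpf, -0.064 to 0.0056 for Kif11, -0.016 to 0.0093 for Nusap1, -0.0036 to 0.028 for Prc1 and -0.12 to 0.0059 for Mki67. Leaving out 1 library of a pair removes the pair, since the other then has no partner, and otherwise the cause was not tested. At 434 counts, the lowest of a member, counting error is 4.80% of the value, but that count, of Aurkb, is from the unpaired control 1. The error of a PE difference holds that of both its counts. It was not computed, and it limits single members at small PE differences. The 3 pairs leave few degrees of freedom.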
